A study of Mus musculus with 75 samples.

Results

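The 5 NF-kB subunit genes Rela, Relb, Rel, Nfkb1 and Nfkb2 were followed through a TNF time course in mouse embryonic fibroblasts carrying RelA or RelA mutants. They were picked by name from the 45706 gene entries counted in each library, as the full set of NF-kB subunits. RNA carrying a poly(A) tail was sequenced from 75 libraries in 55 groups of construct and time, deposited as 2 sets. All cells were C57BL/6 embryonic fibroblasts of genotype p53-/-, crel-/-, rela-/-, so the controls also had no functional p53, c-Rel or RelA gene of their own. Every line carried the retroviral vector pBABE-puro, in which an insert is transcribed from the viral long terminal repeat. The empty vector is called EV, and RelA-WT is the line with RelA of wild-type sequence. RelA-dTA1 lacks the transactivation domain TA1, and RelA-dTAD lacks the transactivation domains altogether. These 4 lines had 2 libraries at each time, 1 in each set. RelA-DB and RelA-dCterm had 1 library a time in set 1. Another 5 lines had 1 library a time in set 2: RelA-TA2_S467A, RelA-TA2_CI, the combination RelA-TA2_CI_S467A, and with the dTA1 change added RelA-TA2_CI-dTA1 as well as RelA-TA2_CI_S467A-dTA1. The labels do not spell out DB, CI or dCterm, and do not say whether a line was a clone or a pool. Cells spent a night in 0.5% serum and were sampled before TNF (0 h) and after 0.5, 1, 3 and 8 h with 10 ng/ml of it. Per the title, the series asks how RelA target genes depend on RelA's transactivating regions.

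NF-kB transcription factors are dimers of 5 subunits that share a Rel homology domain for DNA binding and dimerization. RelA, RelB and c-Rel, encoded by Rela, Relb and Rel, carry a C-terminal transactivation domain. p105 and p100, encoded by Nfkb1 and Nfkb2, are precursors that are processed to p50 and p52 and, unprocessed, hold other subunits in the cytoplasm as inhibitors of the IkB type. TNF, an inflammatory cytokine, activates the IKK kinase complex, IkB proteins are degraded, and RelA-containing dimers enter the nucleus. In fibroblasts RelA with p50 is the main TNF-activated dimer, and several subunit genes are known NF-kB targets themselves.

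The bases just upstream of a transcript start are shown for the 3 genes with an entry in the RefSeq promoter table (Rel, Rela and Nfkb2), because the kappaB consensus is the DNA element the subunits bind. The sequences are from RefSeq (GRCm38.p6), run 5′ to 3′ on the gene's strand, and stop where the gene counted here begins. Capitals mark matches to the kappaB consensus, searched on both strands over 250 bases before the start. The Nfkb2 sequence lies at chr19:46304487-46304736 on the plus strand, the Rel sequence at chr11:23770971-23771219 on the minus strand and the Rela sequence at chr19:5637291-5637482 on the plus strand.
Nfkb2: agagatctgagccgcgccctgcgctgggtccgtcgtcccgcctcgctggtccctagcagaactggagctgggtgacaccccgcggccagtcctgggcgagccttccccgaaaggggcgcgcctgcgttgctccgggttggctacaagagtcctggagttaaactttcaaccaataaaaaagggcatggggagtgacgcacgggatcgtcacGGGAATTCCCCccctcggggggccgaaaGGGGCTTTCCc
Rel: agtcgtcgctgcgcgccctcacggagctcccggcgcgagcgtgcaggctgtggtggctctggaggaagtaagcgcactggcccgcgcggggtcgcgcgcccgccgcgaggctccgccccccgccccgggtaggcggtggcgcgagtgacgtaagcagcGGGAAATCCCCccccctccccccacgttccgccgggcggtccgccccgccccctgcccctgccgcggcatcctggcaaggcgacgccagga
Rela: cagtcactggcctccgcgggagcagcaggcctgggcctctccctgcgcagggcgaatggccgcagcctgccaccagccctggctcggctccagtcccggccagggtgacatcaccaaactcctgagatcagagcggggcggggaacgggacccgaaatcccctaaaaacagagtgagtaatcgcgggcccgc
In Nfkb2 the palindromic match GGGAATTCCC spanned positions -39 to -30 from the start and GGGGCTTTCC spanned -11 to -2. In Rel the match GGGAAATCCC spanned -92 to -83. An overlapping match on the opposite strand was shifted by 1 base in each of these genes, to -38 to -29 in Nfkb2 and -91 to -82 in Rel. No match lay in the 250 bases before the Rela start. Nfkb2 had 2 further starts inside the gene, each with 1 match in its window. Of 32851 windows of this length in the table, 7.25% held a match. These are matches of letters only, and binding was not measured here.

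Depth ran from 4422396 to 6915919 assigned reads per library in set 1, whereas set 2 had 10440202 to 22908738. The fewest reads behind a value were 80 for Relb, 86 for Rel, 112 for Rela, 346 for Nfkb2 and 352 for Nfkb1. All 8 fibroblast markers had a median of at least 1 CPM, which is the reads of a gene when its library is scaled to 1000000 reads, with a summed level of 29603 to 44486 CPM. The 4 macrophage markers summed to 1.62 to 5.59 CPM, with Ptprc and Adgre1 at a median of 0. The 3 endothelial markers summed to 16.2 to 45.2 CPM, nearly all from Kdr, the 4 epithelial ones to 2.42 to 13.5 and the 3 muscle ones to 0.184 to 7.66, with Myod1 and Myog at a median of 0. Their part in the results was not tested. In bulk RNA, fewer cells with a transcript and less of it per cell cannot be told apart. The 2 libraries of a group differed by more than counting noise, and the labels do not state whether they came from separate cultures, so a p-value reflects the scatter between these libraries, which may be technical. The course has no TNF-free samples after 0 h, and a change after TNF therefore includes whatever time alone would do.

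Before TNF, the transcript put back by the vector was the only subunit transcript that passed the test in the 4 comparisons made between replicated lines. Rela (ENSMUSG00000024927.7, mm10 chr19:5637483-5648130, plus strand) was at 16.7 and 15.6 CPM in the set 1 and set 2 libraries of EV. It was at 1149 and 1474 CPM in RelA-WT, 847 and 1452 CPM in RelA-dTA1 and 1121 and 1796 CPM in RelA-dTAD. No EV library came near a RelA line, so most Rela reads outside EV came from the vector. Over the 13 libraries of RelA lines at 0 h, Rela stood from 31.7-fold (RelA-dCterm) to 115-fold (RelA-dTAD, set 2) above EV of the same set. The fitted difference of EV from RelA-WT was a log2 of -6.36 ± 0.44 (SE, edgeR quasi-likelihood test, adjusted p = 1.68e-09), and RelA-dTAD lay above EV by 6.52 ± 0.44 (adjusted p = 2.30e-09). Reads over a whole gene include exons outside any deleted part, and the labels do not name the deleted exons, so neither Rela in EV nor Rel in any line checks a knockout. Of the 5 genes, 1 differed between EV and RelA-WT (0.563% of all 13665 genes tested) and 1 between RelA-dTAD and EV (0.644% of all genes). In both it was Rela, a difference that the RelA insert fixes by design, and no other subunit gene passed.

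The other 4 genes passed in none of the comparisons at rest, though EV lay below RelA-WT in both sets for Nfkb2, Nfkb1 and Relb. Nfkb2 (ENSMUSG00000025225.12, mm10 chr19:46304737-46312090, plus strand) was at 73.9 and 61.3 CPM in EV, 77.3 and 77.3 CPM in RelA-WT, 77.7 and 81.5 CPM in RelA-dTA1 and 75.5 and 79.1 CPM in RelA-dTAD. Nfkb1 (ENSMUSG00000028163.15, chr3:135584655-135691547, minus strand) was at 80.4 and 74.7 CPM in EV against 95.9 and 88.6 CPM in RelA-WT. In both genes the EV libraries were the lower ones, but neither gene passed the threshold (unadjusted p of 0.0404 and 0.0275, adjusted p = 1.00 for each with edgeR). Relb (ENSMUSG00000002983.14, chr7:19606217-19629438, minus strand) was at 17.7 and 20.7 CPM in EV and 22.7 and 29.9 CPM in RelA-WT. It was at 20.6 and 39.7 CPM in RelA-dTA1 and 18.2 and 32.3 CPM in RelA-dTAD. Within each set the EV library had the lowest Relb level of all lines at 0 h. The fitted difference of EV from RelA-WT was -0.47 ± 0.38 on the log2 scale and did not pass (unadjusted p = 0.224 with edgeR). Rel (ENSMUSG00000020275.9, chr11:23736847-23770970, minus strand) was at 18.8 and 27.2 CPM in EV and 18.9 and 27.2 CPM in RelA-WT, the same within each set. The replicated mutants gave 0 of 5 calls against RelA-WT for RelA-dTA1 (0.00% of all genes) and 0 of 5 for RelA-dTAD (0.0293%), with 0 at an unadjusted p under 0.05 and 0 by DESeq2 in both. Over the 7 single libraries at 0 h, Nfkb2 ran from 72.8 to 82.2 CPM, Nfkb1 from 69.7 to 90.7, Relb from 19.2 to 33.7 and Rel from 19.6 to 30.5. Over all 15 libraries at 0 h, RelA-DB had the lowest Nfkb1 level and RelA-TA2_CI_S467A-dTA1 the highest Rel level.

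Per length of annotated exon, Nfkb2 had the highest value at rest in EV. In EV, Nfkb2 was at 20.6 ± 2.69 CPM per kb (SD, n = 2), Nfkb1 at 6.43 ± 0.329, Rela at 5.95 ± 0.302, Relb at 4.94 ± 0.548 and Rel at 3.08 ± 0.796. Nfkb1 and Rela overlapped within 1 SD, whereas the other neighbours did not. In RelA-WT, Rela moved to the top with 483 ± 84.5 CPM per kb, over Nfkb2 at 23.5 ± 0.00400, Nfkb1 at 7.65 ± 0.424, Relb at 6.76 ± 1.3 and Rel at 3.08 ± 0.789. There Nfkb1 and Relb overlapped within 1 SD. The lengths are of all annotated exons, and the length of the RelA insert is not given in the sources used here, so the per-length value of Rela in RelA lines is rough. The place of the other genes also depends on these lengths, which were 12061 bases for Nfkb1 and 3289 for Nfkb2. Before division by length, Nfkb1 stood above Nfkb2 in EV, at means of 77.6 and 67.6 CPM.

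**Figure D1:**
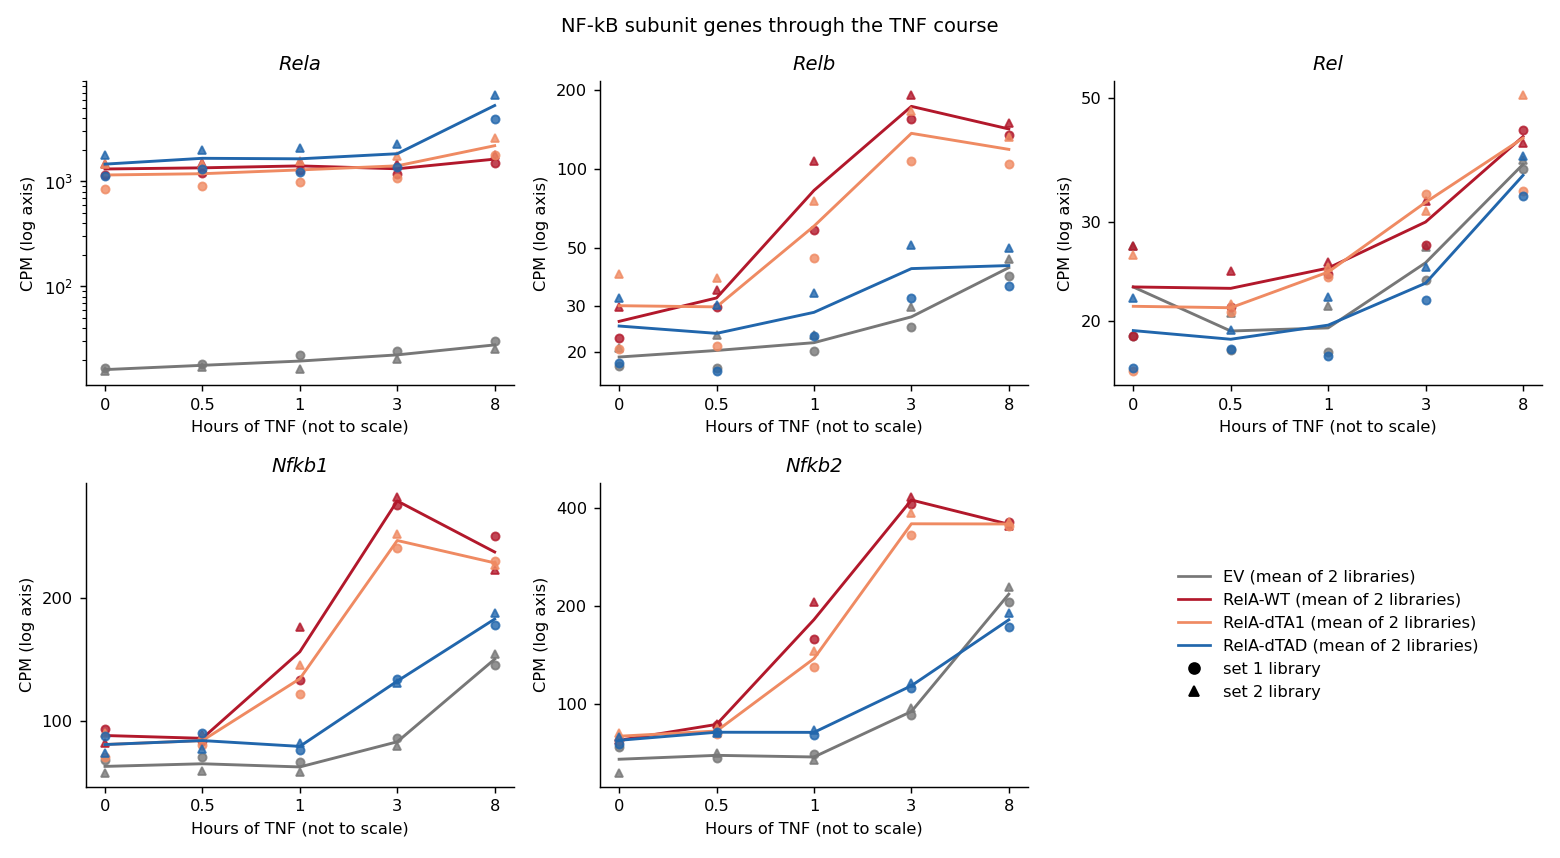
Level of each subunit gene in CPM (log axis) at 0, 0.5, 1, 3 and 8 h of TNF in the 4 constructs with 2 libraries a time; circles are set 1 libraries, triangles set 2 libraries and lines join the means of 2. Nfkb2, Nfkb1 and Relb climbed from 1 h in RelA-WT and RelA-dTA1 and later and less in RelA-dTAD and EV, and Rela ended highest in RelA-dTAD at 8 h.

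With wild-type RelA, TNF raised Nfkb2, Nfkb1 and Relb from 1 h on, with the highest levels at 3 h. Nfkb2, which encodes p100 and p52, was at 86.3 and 86.7 CPM at 0.5 h, 158 and 205 CPM at 1 h, 413 and 434 CPM at 3 h and 362 and 352 CPM at 8 h. No library from 1 h on overlapped the 0 h ones. Its log2 change was 1.25 ± 0.10 at 1 h (adjusted p = 2.70e-09), 2.46 ± 0.10 at 3 h (adjusted p = 3.24e-14) and 2.21 ± 0.10 at 8 h (adjusted p = 1.11e-13). Nfkb1, which encodes p105 and p50, was at 89.3 and 92.3 CPM at 0.5 h, 126 and 169 CPM at 1 h, 336 and 353 CPM at 3 h and 283 and 234 CPM at 8 h. It rose by 0.69 ± 0.11 at 1 h (adjusted p = 0.000218), 1.91 ± 0.11 at 3 h (adjusted p = 1.25e-11) and 1.49 ± 0.11 at 8 h (adjusted p = 7.91e-10) on the log2 scale. Relb, whose protein pairs with p52 in the alternative NF-kB pathway, was at 29.8 and 34.7 CPM at 0.5 h, 58.4 and 108 CPM at 1 h, 155 and 192 CPM at 3 h and 135 and 149.9 CPM at 8 h. It had the largest fold of the 5 genes at 3 h, with a log2 change of 2.72 ± 0.37 (adjusted p = 8.16e-06), after 1.67 ± 0.37 at 1 h (adjusted p = 0.00688) and before 2.42 ± 0.37 at 8 h (adjusted p = 2.41e-05). The set 2 library stood above the set 1 library at 1 h in all 3 genes.

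Rel and Rela behaved differently in the same cells. All lines were crel-/- by genotype, so reads of Rel, the c-Rel gene, do not show functional c-Rel. Rel was at 21.2 and 24.6 CPM at 0.5 h, 24.2 and 25.5 at 1 h, 27.3 and 32.8 at 3 h and 43.8 and 41.5 at 8 h. Its 3 h libraries were each above the 0 h library of their set, with a log2 change of 0.38 ± 0.21 (edgeR adjusted p = 0.258, and 0.0449 with a replicate block, the set as a term of the fit). At 8 h both libraries were above every earlier one, and Rel rose by 0.87 ± 0.21 (adjusted p = 0.00301). Rela, read mostly from the vector, was at 1190.1 and 1499 CPM at 0.5 h, 1275 and 1531 CPM at 1 h, 1171 and 1464 CPM at 3 h and 1483 and 1773 CPM at 8 h, and passed the threshold at no time (adjusted p = 1.00, 1.00, 0.992 and 0.552 with edgeR).

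Counted over the members in RelA-WT, 0 of 5 rose at 0.5 h (0 at an unadjusted p under 0.05; 0.776% of all genes rose), 3 at 1 h (2.55% of all genes), 3 at 3 h (10.5%) and 4 at 8 h (15.8%), and none of the 5 fell. DESeq2 gave 10 calls in all, as edgeR did. The calls of Nfkb2 at 1, 3 and 8 h and of Nfkb1 and Relb at 3 and 8 h passed in every alternative run. Without the set 2 libraries of RelA-WT the 1 h calls of Nfkb1 (0.40, adjusted p = 0.248) and Relb (1.37, adjusted p = 0.599) were lost. Without the set 1 libraries those of Relb at 1 h (1.85, adjusted p = 0.127) and Rel at 8 h (0.61, adjusted p = 0.243) were lost.

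Without RelA, the subunit genes rose late. In EV, Nfkb2 was at 68.2 and 70.8 CPM at 0.5 h, 70.0 and 67.4 CPM at 1 h, 92.5 and 97.0 CPM at 3 h and 206 and 229 CPM at 8 h. The first libraries clear of the 0 h pair were those of 3 h, with a log2 change of 0.50 ± 0.10 (edgeR adjusted p = 0.00371), and at 8 h the change was 1.73 ± 0.10 (adjusted p = 1.98e-12). Nfkb1 stayed between 74.7 and 81.9 CPM up to 1 h, was at 91.1 and 87.0 CPM at 3 h and reached 137 and 146 CPM at 8 h. Its 8 h change was 0.91 ± 0.11 (adjusted p = 4.66e-07). Relb was at 25.0 and 29.7 CPM at 3 h and 39.0 and 45.2 CPM at 8 h, each 8 h library above all earlier ones, with an 8 h change of 1.17 ± 0.38 (adjusted p = 0.0133). Rel was at 23.7 and 27.1 CPM at 3 h and 37.3 and 38.8 CPM at 8 h, an 8 h change of 0.75 ± 0.21 (adjusted p = 0.00496). The low Rela signal of EV went from 16.7 and 15.6 CPM at 0 h to 24.3 and 20.4 at 3 h and 30.4 and 25.2 at 8 h. Both libraries ended above where they began, and the 8 h change of 0.81 ± 0.38 missed the threshold (adjusted p = 0.0853) but passed with the replicate block (0.0464), with DESeq2 (0.0447) and without the filter on low counts, where Rela passed at 3 h as well (0.46, adjusted p = 0.0293).

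In EV 0 of 5 members rose at 0.5 h (0.402% of all genes) and 0 at 1 h (0.768%), with 0 at an unadjusted p under 0.05 at either time. At 3 h 1 rose (3.02% of all genes) and at 8 h 4 rose (25.6%), and none fell. Of these 5 calls, those of Relb (1.15, adjusted p = 0.141) and Rel (0.54, adjusted p = 0.184) at 8 h were lost without the set 1 libraries of EV. Relb at 8 h (1.15, adjusted p = 0.162) and Nfkb2 at 3 h (0.34, adjusted p = 0.386) were lost without those of set 2.

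RelA without its transactivation domains gave late rises of Nfkb2, Nfkb1 and Rel, and the steepest course of the replicated lines in Rela itself. In RelA-dTAD, Nfkb2 was at 80.2 and 83.3 CPM at 1 h, 112 and 116 CPM at 3 h and 172 and 191 CPM at 8 h. It rose by a log2 of 0.56 ± 0.10 at 3 h (edgeR adjusted p = 0.00117) and 1.25 ± 0.10 at 8 h (adjusted p = 3.92e-10). Nfkb1 was at 85.3 and 88.3 CPM at 1 h, 127 and 124 CPM at 3 h and 171 and 184 CPM at 8 h, a rise of 0.52 ± 0.11 at 3 h (adjusted p = 0.00977) and 1.04 ± 0.11 at 8 h (adjusted p = 6.24e-08). For both genes the pairs of 0 h, 3 h and 8 h libraries did not overlap. Relb was at 18.2 and 32.3 CPM at 0 h, 32.2 and 51.3 CPM at 3 h and 35.7 and 50.1 CPM at 8 h. The 2 sets lay far apart at every time, and the changes of 0.72 ± 0.36 at 3 h and 0.77 ± 0.36 at 8 h passed only with the replicate block (adjusted p = 0.387 and 0.0889 without it, 0.00874 and 0.000777 with it) and without the filter on low counts. Rel was at 21.8 and 24.9 CPM at 3 h and 33.4 and 39.3 CPM at 8 h, an 8 h rise of 0.93 ± 0.21 (adjusted p = 0.000858).

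Rela in RelA-dTAD went from 1121 and 1796 CPM at 0 h to 1373 and 2291 CPM at 3 h and to 3883 and 6657 CPM at 8 h. Both 8 h libraries were above every other library of that line, and the log2 change was 1.87 ± 0.35 (edgeR adjusted p = 0.000113). In RelA-dTAD 0 of 5 members rose at 0.5 h (0.439% of all genes) and 0 at 1 h (0.534%), with 0 at an unadjusted p under 0.05 at either time. At 3 h 2 rose (2.28%) and at 8 h 4 (24.4%), and none fell. Leaving out either set of RelA-dTAD ended the 3 h calls of Nfkb1 (adjusted p = 0.237 without set 1 and 0.340 without set 2) and Nfkb2 (0.165 and 0.138).

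RelA without TA1 alone gave a course like that of RelA-WT in outline. In RelA-dTA1, Nfkb2 was at 129.9 and 146 CPM at 1 h, 329.8 and 386 CPM at 3 h and 353 and 362 CPM at 8 h. Its log2 change was 0.81 ± 0.10 at 1 h (edgeR adjusted p = 5.20e-06), 2.19 ± 0.10 at 3 h (adjusted p = 1.27e-13) and 2.17 ± 0.10 at 8 h (adjusted p = 1.34e-13). The 1 h and 3 h libraries lay below those of RelA-WT, and the 8 h libraries did not. Nfkb1 was at 116 and 137 CPM at 1 h, 265 and 287 CPM at 3 h and 246 and 240.1 CPM at 8 h, rising by 0.55 ± 0.11, 1.67 ± 0.11 and 1.47 ± 0.11 (adjusted p = 0.00586, 2.05e-10 and 7.84e-10). Relb was at 45.7 and 75.5 CPM at 1 h, 107 and 166 CPM at 3 h and 105 and 133 CPM at 8 h. Its change of 1.00 ± 0.36 at 1 h passed with the replicate block alone or without the filter on low counts (adjusted p = 0.281 against 0.000271 with the block), and it rose by 2.17 ± 0.36 at 3 h (adjusted p = 0.000120) and 1.96 ± 0.36 at 8 h (adjusted p = 0.000163).

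Rel in RelA-dTA1 was at 16.3 and 26.2 CPM at 0 h, 33.7 and 31.4 CPM at 3 h and 34.1 and 50.6 CPM at 8 h. The 2 sets moved by unequal amounts, and the 3 h change of 0.60 ± 0.21 had an edgeR adjusted p = 0.0549 (0.00147 with the replicate block, and 0.0273 for a change of 1.07 without RelA-dTA1 set 2), against 0.99 ± 0.21 at 8 h (adjusted p = 0.000618). Rela went from 847 and 1452 CPM at 0 h to 1079 and 1731 CPM at 3 h and 1775 and 2594 CPM at 8 h, a rise of 0.93 ± 0.34 at 8 h (adjusted p = 0.0378). That last call was lost in 6 of the 8 fits that left out a set of 1 construct (all but those leaving out RelA-dTAD libraries), at an adjusted p of 0.0596 to 0.220, and with library totals alone (0.76, adjusted p = 0.0811). In all, 0 of 5 members rose at 0.5 h (0 at an unadjusted p under 0.05; 0.615% of all genes rose), 2 at 1 h (1.41% of all genes), 3 at 3 h (9.58%) and 5 at 8 h (19.4%), and none fell. Leaving out either set of RelA-dTA1 ended the 1 h call of Nfkb1 (adjusted p = 0.214 and 0.361).

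The responses themselves were then compared with that of RelA-WT, as the difference of the log2 changes from 0 h. These differences all share the RelA-WT libraries. In EV the response differed for 2 of 5 genes at 1 h (0.600% of all genes), 3 at 3 h (3.68%) and 2 at 8 h (17.6%), and for 0 at 0.5 h (0.0805%). All 7 were smaller in EV. Nfkb2 differed on the log2 scale by -1.21 ± 0.14 at 1 h (edgeR adjusted p = 8.58e-06), -1.96 ± 0.14 at 3 h (adjusted p = 2.76e-09) and -0.48 ± 0.14 at 8 h (adjusted p = 0.0164). Nfkb1 differed by -0.69 ± 0.16 at 1 h (adjusted p = 0.0442), -1.70 ± 0.16 at 3 h (adjusted p = 1.98e-07) and -0.58 ± 0.16 at 8 h (adjusted p = 0.0123). Relb differed by -2.20 ± 0.53 at 3 h (adjusted p = 0.0139). Its differences of -1.47 ± 0.53 at 1 h and -1.25 ± 0.52 at 8 h passed with the replicate block (adjusted p = 0.00196 and 0.000517) and without the filter on low counts, but not otherwise (0.560 and 0.105).

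Of these EV differences, those of Nfkb2 at 1 h and of both Nfkb1 and Nfkb2 at 3 h passed in every alternative. The 1 h difference of Nfkb1 was lost in 7 of the 8 fits that left out a set of 1 construct (the exception left out RelA-WT set 1), at an adjusted p of 0.0650 to 1.00. Relb at 3 h was lost when either set of EV or of RelA-WT was left out (0.119 to 0.221). Without EV set 1, Nfkb1 (-0.50, adjusted p = 0.161) and Nfkb2 (-0.29, adjusted p = 0.371) no longer passed at 8 h. Nfkb2 at 8 h also missed the threshold without the filter on low counts (-0.48, adjusted p = 0.0755), and Nfkb1 at 1 h with relative log expression size factors (-0.68, adjusted p = 0.0521).

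Where they passed, the differences of RelA-dTAD from RelA-WT were negative for Nfkb2, Nfkb1 and Relb and positive for Rela. There were 2 differences at 1 h (0.600% of all genes), 3 at 3 h (3.10%) and 3 at 8 h (12.2%), and 0 at 0.5 h (0.0805%). Nfkb2 differed by -1.16 ± 0.14 at 1 h (edgeR adjusted p = 1.26e-05), -1.90 ± 0.14 at 3 h (adjusted p = 5.27e-09) and -0.96 ± 0.14 at 8 h (adjusted p = 3.41e-05). Nfkb1 differed by -0.70 ± 0.16 at 1 h (adjusted p = 0.0329) and -1.39 ± 0.16 at 3 h (adjusted p = 4.88e-06), and by -0.45 ± 0.16 at 8 h, which missed the threshold (adjusted p = 0.0666) but passed with the replicate block (0.0244) and with library totals. Relb differed by -2.00 ± 0.51 at 3 h (adjusted p = 0.0277) and -1.66 ± 0.51 at 8 h (adjusted p = 0.0344), and by -1.51 ± 0.52 at 1 h (adjusted p = 0.477, and 0.000592 with the block), which also passed without the filter on low counts. Rela differed by 1.56 ± 0.48 at 8 h (adjusted p = 0.0345), the only member whose response was larger than in RelA-WT by the test. The Rela difference of EV from RelA-WT at 8 h had the same sign, 0.50 ± 0.51, but did not pass (edgeR adjusted p = 0.586). Whether the EV and RelA-dTAD responses differ from each other was not tested.

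In the RelA-dTAD comparison, the differences of Nfkb2 at 1, 3 and 8 h and of Nfkb1 at 3 h passed in every alternative. The 2 Relb differences and that of Rela were lost when any set of EV, RelA-WT or RelA-dTAD was left out, at an adjusted p of 0.0599 to 0.214 for Relb and 0.0671 to 0.251 for Rela. The value of Rela stayed between 1.46 and 1.59 in those fits. Nfkb1 at 1 h was lost in 7 of the 8 such fits (0.0548 to 1.00), the exception being the one without RelA-WT set 1.

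For RelA-dTA1, 0 of 20 gene and time pairs differed from RelA-WT by edgeR or by DESeq2 (0.00366% of such pairs over all genes), and 1 had an unadjusted p under 0.05. That pair was Nfkb2 at 1 h, with a difference of -0.44 ± 0.14 (unadjusted p = 0.00383, adjusted p = 1.00). At 3 h Relb differed by -0.54 ± 0.50, Nfkb1 by -0.24 ± 0.16 and Nfkb2 by -0.27 ± 0.14, all below RelA-WT. For Rel, no pair passed in any of the 3 lines, and the adjusted p ran from 0.866 to 1.00.

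**Figure D2:**
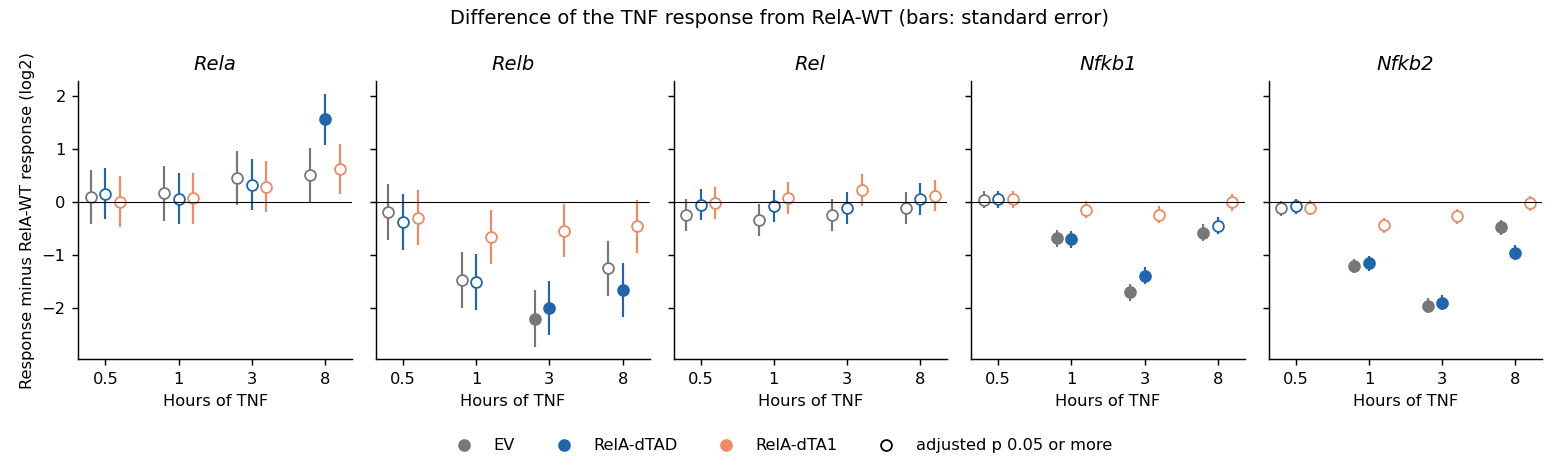
Difference of the TNF response (log2 change from 0 h) from that of RelA-WT for each subunit gene at 0.5, 1, 3 and 8 h, with the standard error as bars; filled points had an adjusted p under 0.05 in edgeR's quasi-likelihood test. Nfkb2 in EV and RelA-dTAD sat near -1.96 and -1.90 at 3 h, Rela in RelA-dTAD at 1.56 at 8 h, and no RelA-dTA1 point was filled.

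From 3 to 8 h the endogenous genes that passed in EV and RelA-dTAD rose, and the 1 gene that passed in RelA-WT fell. Of the rising genes, Rel in both lines and Nfkb1 in EV had not passed at 3 h against 0 h. In EV, Nfkb2 rose by 1.23 ± 0.10 (edgeR adjusted p = 1.42e-09) and Nfkb1 by 0.70 ± 0.11 (adjusted p = 3.30e-05). With Rel, which gained 0.61 ± 0.21 (adjusted p = 0.0288), 3 of 5 genes changed (34.7% of all genes). Relb passed there with the replicate block only or without the filter on low counts (0.65 ± 0.37, adjusted p = 0.194, and 0.00688 with the block). In RelA-dTAD, Rela rose by 1.54 ± 0.35 (adjusted p = 0.00135), Nfkb2 by 0.69 ± 0.10 (adjusted p = 6.08e-06), Rel by 0.65 ± 0.21 (adjusted p = 0.0194) and Nfkb1 by 0.52 ± 0.11 (adjusted p = 0.000857), which was 4 of 5 (32.6% of all genes). In RelA-WT the 1 change was a fall of Nfkb1, -0.42 ± 0.11 (adjusted p = 0.0169), against 7.64% of all genes. With the replicate block 3 genes changed there (21.5% of all genes), Nfkb2 falling (-0.26, adjusted p = 0.0138) and Rel rising (0.47, adjusted p = 0.0106) besides Nfkb1. In RelA-dTA1 0 of 5 passed by edgeR and by DESeq2 (0 at an unadjusted p under 0.05; 10.4% of all genes passed), and 2 with the block (26.9% of all genes), both rising (Rela 0.64, adjusted p = 0.0315, and Rel 0.43, adjusted p = 0.0111), of which Rela also passed without the filter on low counts. The fall of Nfkb1 in RelA-WT was lost without the set 2 libraries of that line (-0.25, adjusted p = 0.394). Rel was lost in EV without EV set 1 (0.258), EV set 2 (0.157) or RelA-WT set 2 (0.0515) and with library totals (0.121). In RelA-dTAD, Rel was lost without either set of that line (0.134 and 0.195) or with library totals (0.0873), and Nfkb1 without set 2 (0.0821). The differences between lines in this late step were not tested.

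The TNF change of Rela itself spread widely over the 11 constructs, of which all but EV held a RelA insert in the vector. At 8 h the single libraries were at 3833 CPM in RelA-TA2_CI-dTA1, 3851 in RelA-TA2_CI_S467A-dTA1, 2636 in RelA-TA2_CI, 2004 in RelA-TA2_CI_S467A, 1921 in RelA-TA2_S467A, 1758 in RelA-DB and 1728 in RelA-dCterm. Against their own 0 h libraries these were log2 changes of 1.74, 1.53, 0.87, 0.75, 0.43, 1.42 and 1.70 in the same order. The 2 libraries of RelA-dTAD changed by 1.79 and 1.89, those of RelA-dTA1 by 1.07 and 0.84, those of EV by 0.85 and 0.69 and those of RelA-WT by 0.37 and 0.27. RelA-TA2_CI-dTA1 and RelA-dCterm were thus nearest to RelA-dTAD, RelA-TA2_S467A nearest to RelA-WT, and RelA-TA2_CI within the range of RelA-dTA1. Up to 3 h the change was small in all RelA lines, from -0.17 at 0.5 h in RelA-TA2_CI_S467A to 0.50 at 3 h in RelA-DB.

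Set beside Nfkb2 at 3 h, the RelA lines with larger Nfkb2 changes tended to have smaller Rela changes. RelA-WT had Nfkb2 changes at 3 h of 2.42 and 2.49 with Rela changes at 8 h of 0.37 and 0.27, and RelA-dTAD had 0.56 and 0.55 with 1.79 and 1.89. RelA-DB (Nfkb2 0.43, Rela 1.42) and RelA-dCterm (0.37 and 1.70) did not follow it through, having smaller Nfkb2 changes than RelA-dTAD and also smaller Rela changes. EV, the line with no RelA insert, lay farther off, with Nfkb2 at 0.32 and 0.66 and Rela at 0.85 and 0.69. This is a description of 15 courses, each of 1 library a time, and no test was made. It sets Nfkb2 at 3 h beside Rela at 8 h. With every time after TNF and EV included, Pearson's r between the changes of Rela and Nfkb2 was positive, at 0.37 over 60 libraries.

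**Figure D3:**
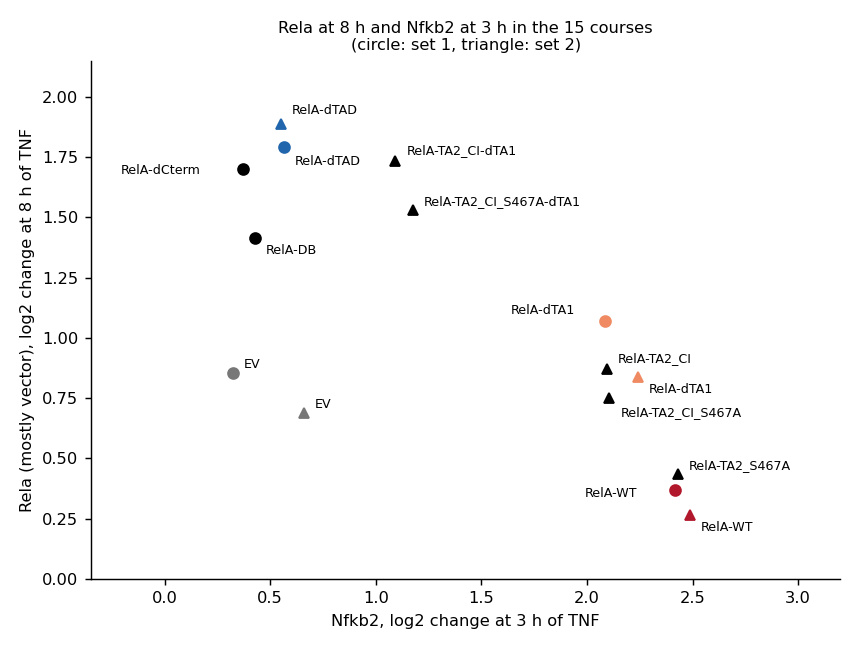
log2 change of Rela at 8 h (vertical axis, reads mostly from the vector except in EV) against log2 change of Nfkb2 at 3 h (horizontal axis) in the 15 courses, each against its own 0 h library; circles are set 1 and triangles set 2. RelA lines with a strong Nfkb2 change, such as RelA-WT at 2.42 and 2.49, had small Rela changes, and the 2 EV courses sat apart at 0.85 and 0.69 for Rela.

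The 5 TA2 mutants had 1 library a time, so their values have no replicate check and are read against RelA-WT and RelA-dTA1 of the same set. At 3 h Nfkb2 was at 444 CPM in RelA-TA2_S467A, 342 in RelA-TA2_CI and 333 in RelA-TA2_CI_S467A, against 434 in RelA-WT and 386 in RelA-dTA1. It was at 173 in RelA-TA2_CI-dTA1 and 182 in RelA-TA2_CI_S467A-dTA1, against 116 in RelA-dTAD and 97.0 in EV. The 2 constructs that joined a TA2 change with dTA1 therefore sat between the other 3 TA2 mutants and RelA-dTAD. Nfkb1 kept that order at 3 h, with 328, 268 and 253 CPM in the first 3 and 153 and 162 CPM in the last 2. Relb did so too, with 208, 159 and 158 CPM against 76.1 and 76.4 CPM, where RelA-WT of that set had 192 and RelA-dTAD 51.3.

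By 8 h these gaps had narrowed for Nfkb1 and Nfkb2. Nfkb2 was at 348 to 358 CPM in RelA-TA2_S467A, RelA-TA2_CI and RelA-TA2_CI_S467A and at 265 and 275 CPM in RelA-TA2_CI-dTA1 and RelA-TA2_CI_S467A-dTA1, against 352 in RelA-WT and 191 in RelA-dTAD of set 2. Nfkb1 was at 249, 237 and 242 CPM in the first 3 and 206 and 218 CPM in the last 2. Relb was at 152, 138 and 147 CPM against 77.2 and 71.6 CPM, so its gap stayed wide. At 8 h Rel was at 39.3 to 49.6 CPM in all 5, near the 41.5 CPM of RelA-WT, and it passed 2-fold in none. 

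Past a 2-fold change at 3 h were 3 of 5 members in RelA-TA2_S467A (8.09% of all genes in the same libraries), 3 in RelA-TA2_CI (6.75%) and 3 in RelA-TA2_CI_S467A (6.34%). RelA-TA2_CI-dTA1 had 2 (4.60%) and RelA-TA2_CI_S467A-dTA1 2 (3.66%). Relb and Nfkb2 were past it in all 5 lines, and Nfkb1 stayed short of it in the last 2, at a log2 change of 0.87 in each. At 8 h Relb, Nfkb1 and Nfkb2 were past it in all 5, which made 3 members in RelA-TA2_S467A (10.6% of all genes), RelA-TA2_CI (11.6%) and RelA-TA2_CI_S467A (13.8%). With Rela there were 4 in RelA-TA2_CI-dTA1 (19.1%) and in RelA-TA2_CI_S467A-dTA1 (16.3%). At 1 h Relb was past 2-fold in RelA-TA2_S467A (1.66), RelA-TA2_CI (1.11) and RelA-TA2_CI_S467A (1.28), and Nfkb2 in RelA-TA2_S467A (1.17), which made 2 members there (3.82% of all genes) and 1 each in the other 2 (3.23% and 2.47%).

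RelA-DB and RelA-dCterm, both from set 1, lay nearer to EV than to RelA-WT in their levels of Nfkb2, Nfkb1 and Relb at 3 and 8 h. Nfkb2 at 3 h was at 108 CPM in RelA-DB and 94.2 CPM in RelA-dCterm, against 92.5 in EV, 112 in RelA-dTAD and 413 in RelA-WT of that set. At 8 h it was at 234 and 179 CPM, against 206 in EV and 172 in RelA-dTAD. Nfkb1 was at 95.0 and 108 CPM at 3 h and 158 and 155 CPM at 8 h, where EV had 91.1 and 137 and RelA-dTAD 127 and 171. Taken as the log2 change from 0 h, Nfkb1 at 8 h in RelA-DB (1.18) lay about midway between EV (0.77) and RelA-WT (1.56) of that set. Relb was at 31.2 and 30.9 CPM at 3 h and 37.2 and 34.0 CPM at 8 h, the 2 lowest 3 h values among the RelA lines. Rel at 8 h was at 24.9 CPM in RelA-DB and 30.2 CPM in RelA-dCterm, the 2 lowest of the 15 libraries at that time, while EV had 37.3 in that set. In both lines 0 of 5 members were past 2-fold at 3 h (11.0% and 9.70% of all genes). At 8 h these were 3 in RelA-DB (Rela, Nfkb1 and Nfkb2; 30.1% of all genes) and 2 in RelA-dCterm (Rela and Nfkb2; 28.2%).

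**Figure D4:**
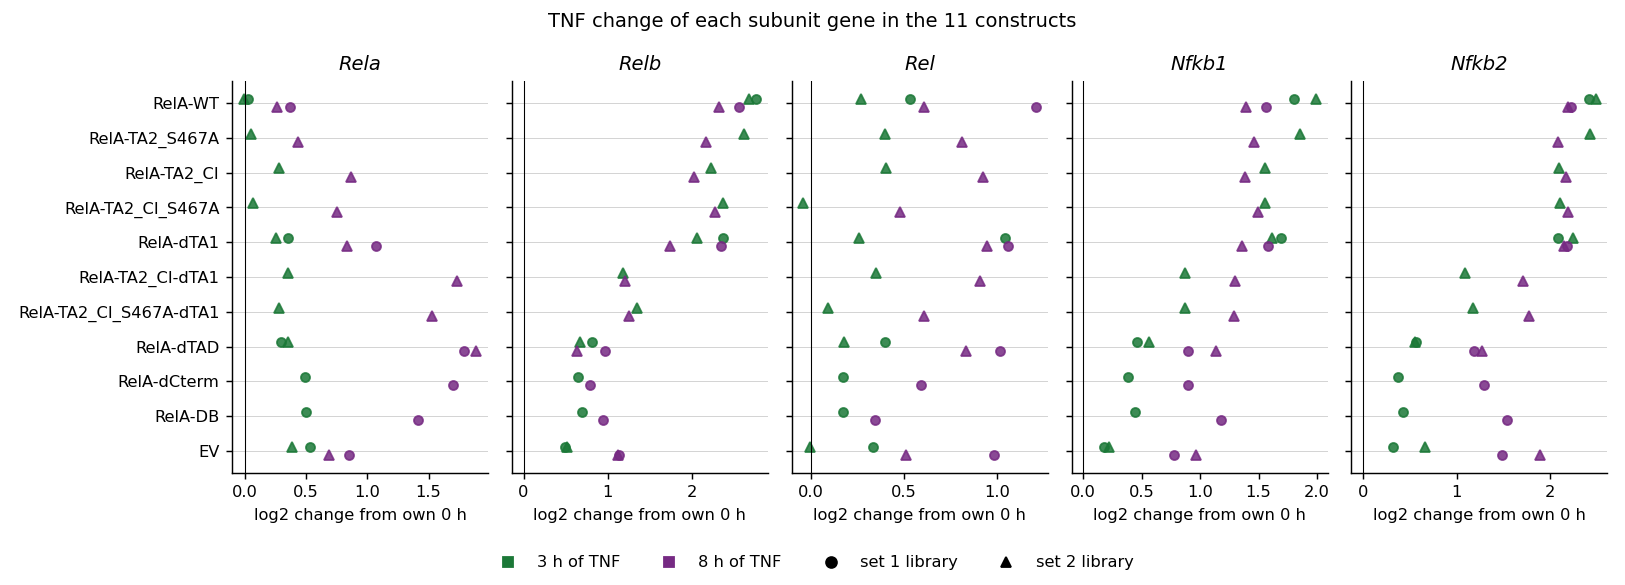
log2 change of each subunit gene from its own 0 h library at 3 h (green) and 8 h (purple) in the 11 constructs, with 1 point per library; circles are set 1 and triangles set 2. For Nfkb2 at 3 h the points run from 0.32 in EV set 1 to 2.49 in RelA-WT set 2. For Rel they run from -0.04 in RelA-TA2_CI_S467A to 1.04 in RelA-dTA1 set 1 at 3 h, and from 0.35 in RelA-DB to 1.21 in RelA-WT set 1 at 8 h.

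Ordered by level at 3 h (the mean of both sets where a line had 2 libraries), RelA-WT and RelA-TA2_S467A stood at the top for Nfkb1 and for Nfkb2. Below them came RelA-dTA1, RelA-TA2_CI and RelA-TA2_CI_S467A. For Nfkb2 the values of RelA-TA2_CI and RelA-TA2_CI_S467A fell between the 2 libraries of RelA-dTA1 (329.8 and 386 CPM), so these neighbours did not differ beyond that spread. RelA-DB lay just below the pair of RelA-dTAD (112 and 116 CPM) and RelA-dCterm within the pair of EV (92.5 and 97.0 CPM). For Rel at 3 h the whole range over 15 libraries was 21.8 to 34.5 CPM, and a pair of replicates spanned up to 27.3 to 32.8 CPM, so most neighbours in its order did not differ beyond the spread.

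The rest of the pathway was described at 3 h with a list of 34 genes for receptors, adaptors, kinases, ubiquitin enzymes and inhibitors of NF-kB signaling, all 34 of them measured. In RelA-WT 19 rose and 0 fell while 10.5% of all genes rose and 5.74% fell. The largest rises were in Nfkbie (4.97 ± 0.27) and Nfkbia (3.26 ± 0.15), which encode the inhibitors IkB-epsilon and IkB-alpha, Tnfaip3 (4.01 ± 0.33), which encodes the ubiquitin-editing enzyme A20, and Traf1 (3.21 ± 0.57), a TNF receptor adaptor. In RelA-dTA1 17 rose and 0 fell (9.58% of all genes rose and 4.87% fell), led by Nfkbie (4.61 ± 0.26), Tnfaip3 (4.04 ± 0.33), Traf1 (3.14 ± 0.58) and Bcl3 (3.10 ± 0.42), an IkB family member that binds p50 and p52. In RelA-dTAD 6 rose and 0 fell (2.28% of all genes rose and 0.629% fell), led by Bcl3 (1.61 ± 0.44), Tnfaip3 (1.40 ± 0.35), Map3k14 (1.39 ± 0.28), which encodes the kinase NIK of the p100 pathway, and Nfkbiz (1.09 ± 0.26), a nuclear IkB protein. In EV 3 rose and 0 fell (3.02% of all genes rose and 0.922% fell), namely Map3k14 (1.24 ± 0.28), Nfkbiz (1.02 ± 0.26) and Chuk (0.43 ± 0.12), which encodes the kinase IKK-alpha. With the replicate block 23 rose and 2 fell in RelA-WT (30.9% of all genes changed), 21 rose and 1 fell in RelA-dTA1 (30.5%), 7 rose in RelA-dTAD (12.4%) and 5 in EV (16.2%). The genes that fell with the block, named after their values were seen, were Tab1 in RelA-WT (-0.43 ± 0.18 without it, adjusted p = 0.114, and 0.0193 with it) and in RelA-dTA1 (-0.40 ± 0.18, adjusted p = 0.144, and 0.0201 with it), and Ikbkg in RelA-WT (-0.28 ± 0.15, adjusted p = 0.220, and 0.0162 with it). The median change of the list was 0.47 in RelA-WT, 0.39 in RelA-dTA1, 0.06 in RelA-dTAD and 0.07 in EV, beside -0.02, -0.01, -0.01 and -0.01 over all genes tested. All these changes are log2 values with their standard error from the edgeR fit, and in the lines with the fewest calls their adjusted p was 0.0114, 0.0258 and 0.0335 in EV and 0.0448, 0.0251, 0.00562 and 0.0200 in RelA-dTAD, in the order given. The 3 EV calls were each lost without either set of EV (adjusted p = 0.0618 to 0.842), Nfkbiz and Chuk also with library totals (0.0504 and 0.0609), and Chuk also without the filter on low counts (0.129). All 4 named RelA-dTAD calls were lost without either set of RelA-dTAD (0.0720 to 0.492), that of Bcl3 also without either set of EV or RelA-WT (0.0581 to 0.0710), with library totals (0.0595) and with all 75 libraries in 1 fit (0.0569), that of Tnfaip3 without either set of RelA-dTA1 (0.0538 and 0.0549) and that of Nfkbiz without RelA-WT set 1 (0.0539). Nfkbiz and Chuk in EV also missed it in some fits that left out RelA-WT or RelA-dTAD libraries (0.0525 to 0.0633), and Traf1 in RelA-WT without RelA-WT set 1 (2.23, adjusted p = 0.0791).

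Genes whose TNF change ran most like that of a member were ranked by Pearson's r over the 60 libraries after TNF, among 12949 other genes. The points share the 0 h library of their course and come from 2 sets of different depth, so r is a description. For Nfkb2 these were Bid (r = 0.971), Trim47 (0.960) and Cx3cl1 (0.958). For Nfkb1 they were Bid (0.963), Rab8b (0.959) and Rnf14 (0.956), and for Relb Cx3cl1 (0.963), Ifngr2 (0.958) and Ripk2 (0.952). Rel gave lower values, with Sf3b3 (0.873), Agfg1 (0.869) and Atp10a (0.867). Among the members, Nfkb1 and Nfkb2 were the most alike (0.977), followed by Relb with Nfkb2 (0.945) and with Nfkb1 (0.934), whereas Rel with Nfkb2 gave 0.717. For Rela only the 8 EV libraries after TNF were used, and Asb6 (0.990), Chml (0.988) and Map4k5 (0.987) came first there. These are the top values of a long ranking over few points, with 112 to 272 Rela reads each. They cannot be set beside the values over 60 libraries.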

How the data were processed

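The authors deposited whole-number read counts per gene for both sets. The submitters' processing notes name cutadapt 1.9.1, STAR, DESeq2, featureCounts 1.5.0 and the build mm10, without their roles or settings. The kit was stranded, per the labels' protocols, but whether counting used strand is not given in the sources used here, and Psd on the opposite strand shares 4 exon bases with Nfkb2. CPM and log2 CPM (prior count 2) were computed here from the deposited counts with edgeR 4.0.16 in R 4.3.3 and TMM scaling. Symbols matched 45143 of 45706 entries (98.77%). edgeR's quasi-likelihood model, with a mean for every combination of construct and time, used the 40 libraries of the 4 replicated constructs and the 13665 genes that passed filterByExpr (all 5 members among them). The p-values were adjusted by Benjamini-Hochberg over those genes with a threshold of 0.05. It had 20 residual degrees of freedom. Each standard error was computed here as the size of the log2 change divided by the square root of the test's F statistic. The script was tested on simulated data. The 7 lone-library constructs were described without a test, with 2-fold as the mark, over the 15090 genes kept in all 75 libraries.

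A replicate number stands for a set in the labels. Same-numbered libraries deviated together in all 190 pairs of groups (correlation 0.353 to 0.661, median 0.519), so the numbers pair the samples. The main fit has no term for the set, which leaves the difference between sets in its scatter and can hide a change. The replicate block, run as an alternative, added 15 calls of single genes and ended 0. A call missed only without the block therefore does not show a lack of change. The other alternatives were size factors, no filter, DESeq2 1.42.0, all 75 libraries in 1 fit and leaving out the libraries of 1 construct and set. Named are all members, up to 4 pathway genes a direction with the largest passing change, and the 3 genes most like each member. Members and lists were chosen with earlier results of these data known.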

Additional observations from a re-analysis of the deposited data

Results flagged for a closer look

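The TNF responses of 4 subunit genes differed between constructs by the test of the difference itself, which is why they are listed. Against RelA-WT, the EV response of Nfkb2 differed by a log2 of -1.21 at 1 h, -1.96 at 3 h and -0.48 at 8 h, that of Nfkb1 by -0.69, -1.70 and -0.58 at the same times, and that of Relb by -2.20 at 3 h. The RelA-dTAD response of Nfkb2 differed by -1.16 at 1 h, -1.90 at 3 h and -0.96 at 8 h, that of Nfkb1 by -0.70 at 1 h and -1.39 at 3 h, and that of Relb by -2.00 at 3 h and -1.66 at 8 h. Rela in RelA-dTAD at 8 h, read mostly from the vector, was the 1 passing case with a larger response than in RelA-WT, by 1.56. All 15 values share the RelA-WT libraries.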

How the results depend on the processing

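Calls rest on 2 libraries a group, and the shallow set 1 gave as few as 80 reads for Relb. The standard error of a TNF change was about 0.37 for Relb and 0.21 for Rel (log2), and that of a Relb response difference 0.50 to 0.53. Changes well past it could still miss the threshold, as Relb at 1 h (1.00 ± 0.36) and Rel at 3 h (0.60 ± 0.21) did in RelA-dTA1. Both passed with the replicate block. Changes that missed the threshold cannot be told from scatter between libraries in that fit. Leaving out the libraries of 1 construct and set leaves a group with 1 library, assumed to vary like the others. The replicate block raised the number of genes called over all genes by 1.29 to 4.28 times (median 2.11) over 28 comparisons, and no filter on low counts changed it by 0.912 to 2.1 times. Library totals alone shifted the median of all genes by -0.24 to 0.07 (log2), other size factors by -0.01 to 0.01.

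Of 20 gene and time pairs, the count changed by TNF in EV was 5, and 3 to 5 when libraries were left out. The count of responses differing between EV and RelA-WT was 7, and 3 to 6, and between RelA-dTAD and RelA-WT 8, and 4 to 7. For 8 h against 3 h, RelA-WT went from 1 to 3 with the replicate block and to 0 to 1 with libraries left out, RelA-dTA1 from 0 to 2 with the block and to 1 with no filter, and RelA-dTAD from 4 to 2 to 4 with libraries left out. The other counts stayed within 1.5 times. The cause was not tested. In the single libraries 39 of 140 gene and time pairs were past 2-fold, and 38 with library totals. The share of all genes past 2-fold there ran from 1.52% (RelA-TA2_CI_S467A-dTA1 at 1 h) to 30.1% (RelA-DB at 8 h). Among 71 single-gene results that passed, 30 lost the threshold in some alternative. The 1 change of sign was Relb at 0 h in RelA-dTAD against EV, which did not pass, at 0.44, and -0.07 to 0.74 when libraries were left out (the lowest without RelA-dTAD replicate 2). The block ended no call, and besides the calls named with it in the text it changed none of the members' calls.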
